A study of Bos taurus and Sus scrofa with 10 samples.

Results

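The zona pellucida is the glycoprotein coat of the mammalian egg, and ZP2, ZP3 and ZP4 encode the proteins known to build it in cow and pig. The genes were taken by name from a table of 22845 gene rows for cow and one of 21867 rows for pig. All 3 genes were present in both tables, with 1 row each. RNA sequencing of total RNA had been done on oocytes, 2-4 cell embryos, 8-16 cell embryos, morulae and blastocysts of Bos taurus and of Sus scrofa, with 1 library per stage and species and 10 libraries in all. No strain, genotype, treatment, age or culture condition is given by the labels, nor the number of oocytes or embryos in a library. With 1 library per group no difference below has a replicate check, and no test was possible. Intervals are 95% intervals from the read counts (exact Poisson for levels, exact conditional binomial for ratios, Clopper-Pearson for shares). They cover counting error only, since reads from amplified cDNA are not independent molecules.

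Zona proteins are made by the growing oocyte as membrane-anchored precursors that share a polymerisation module, the ZP domain. They are cut free near the membrane by furin-type proteases and assemble into long filaments. The finished coat binds sperm, is hardened after fertilisation when the protease ovastacin cuts ZP2, and stays around the embryo until the blastocyst hatches. ZP2 is the target of that cut. ZP3 is a filament subunit paired with ZP2 or ZP4, and a complex of ZP3 and ZP4 is known to bind sperm in the pig. The transcripts are therefore classed as oocyte messages, although the protein outlasts them.

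Levels are given as RPM, the reads of a gene per 1000000 reads sequenced, not divided by gene length, so a level is compared between stages of one gene and not between genes. Read totals ranged from 3002751 to 14182046 per library, and the cow blastocyst library was the deepest. A count of 0 reads allows up to 3 reads, the floor, which was 0.212 RPM in the cow blastocyst library and 0.804 RPM in the pig blastocyst library. A fold written with "at least" is taken against this floor, with the other count as measured. The stage labels were checked against marker genes. Oocyte markers such as GDF9 and BMP15 summed to 5504 RPM over 10 genes in the cow oocyte library and to 468 RPM in the cow blastocyst library, where 7 of the 10 had 0 reads, and to 6259 and 23.1 RPM over the 8 that the pig table lists. The sums of blastocyst markers went the other way, with 22.7 RPM in cow oocytes and 3012 RPM in cow blastocysts, and 19.8 and 7234 RPM in pig. KRT8 and KRT18 alone were at 1490 and 1021 RPM in cow blastocysts and at 3629 and 2681 RPM in pig blastocysts. Of 8 listed in cow, 3 had reads in oocytes and 8 in blastocysts. Of 9 listed in pig, 1 had reads in oocytes and 7 in blastocysts, where NANOG and SOX17 had 0 reads. Of 20 genes typical of the cumulus and granulosa cells around an oocyte, 12 were above 3 reads in the cow oocyte library and 7 of 16 in the pig one. Their summed level was 559 RPM in the cow oocyte library and between 141 and 1039 RPM in the later cow libraries. In pig it was 184 RPM in the oocyte library and between 163 and 2170 RPM later. Highest on this list in the cow oocyte library were STAR (157 RPM), HAS2 (141 RPM), VCAN (116 RPM) and PTGS2 (91.3 RPM). In the pig oocyte library they were VCAN (101 RPM) and STAR (43.2 RPM). AMH, AMHR2, FOXL2, INHA, CYP11A1, LHCGR and DCN were at 0 reads in the cow oocyte library. In the pig one INHA, INHBA, TNFAIP6, CYP11A1, PTGS2 and NR5A2 were at 0 reads. Whether such cells added to the zona reads was not tested.

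All 3 zona genes were highest in the oocyte library of both species and at or below the 3-read floor in both blastocyst libraries. Genes entered a comparison with 1 RPM or more in either stage, and were called at a difference of 2 or more in log2(RPM + 1), which is 4-fold on that scale and understates the change of low genes. From oocyte to blastocyst all 3 were called lower in cow, where 18.4% of the 12738 genes compared were called lower and 21.8% higher, and all 3 in pig, where the shares of 12512 genes were 19.2% and 26%. The median difference of the zona genes was -8.00 in cow and -7.35 in pig, or -7.81 and -6.81 with counts under the floor set to it. The medians over all genes compared were 0.18 and 0.43. RNA per embryo was not measured, so in these bulk samples fewer cells of a type and less RNA per cell cannot be told apart.

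**Figure D1:**
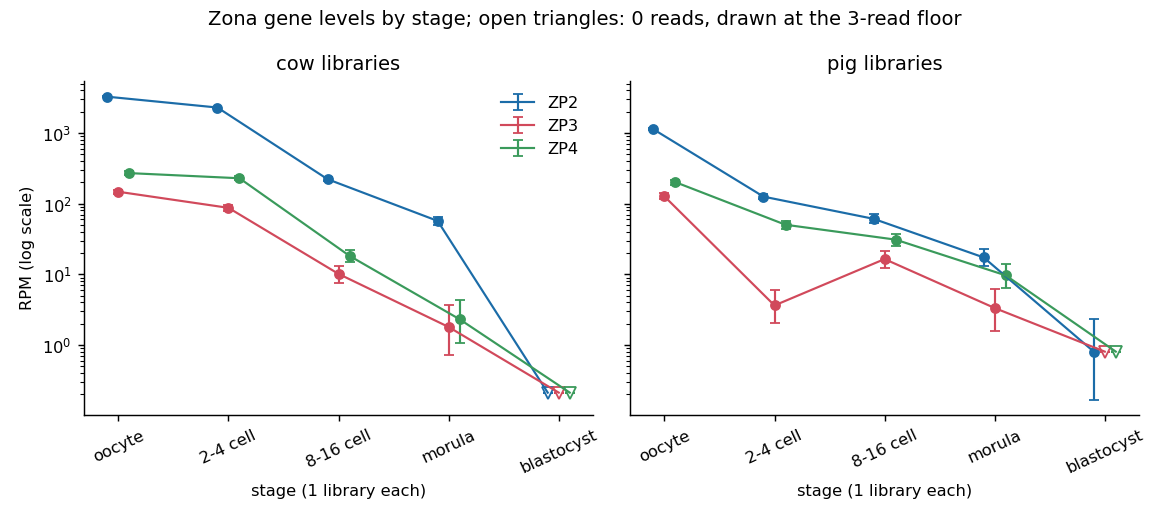
Levels of ZP2, ZP3 and ZP4 in RPM (log scale) in the 5 cow and 5 pig libraries, with 95% Poisson intervals; open triangles mark 0 reads and stand at the 3-read floor. The cow genes keep most of their level to the 2-4 cell stage and drop at the 8-16 cell stage, while the pig genes drop at the 2-4 cell stage, ZP3 to 3.62 RPM.

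ZP2 in cow lies on chromosome 25, 19228387 to 19240185, minus strand, in UMD3.1, the cattle build in the submitters' processing notes. Its level was 3261 RPM in the oocyte library (95% interval 3211 to 3312), 2291 RPM in the 2-4 cell library (2247 to 2336), 222 RPM in the 8-16 cell library (209 to 235), 56.9 RPM in the morula library (49.7 to 64.9) and 0 reads in the blastocyst library. Each stage was thus below the one before it, and none of the intervals overlapped. By read number ZP2 ranked 9 of all rows in the cow oocyte library, 11 at the 2-4 cell stage and 609 at the 8-16 cell stage. From oocyte to blastocyst it was at least 15418-fold lower, and no other gene of the 12738 compared had a larger fall. Among genes with 0 blastocyst reads the size of the fall is set by the oocyte level, so this place partly reflects abundance. The nearest rows, TMEM159 and ANKS4B, lie 26396 and 28095 bases away and do not overlap ZP2.

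In pig ZP2 lies on chromosome 3, 24863730 to 24877522, plus strand, in Sscrofa11.1, the pig build in the same notes. It was at 1128 RPM in the oocyte library (1092 to 1164), 126 RPM in the 2-4 cell library (115 to 137), 60.96 RPM in the 8-16 cell library (52.7 to 70.2) and 17.3 RPM in the morula library (12.9 to 22.7). The blastocyst library held 3 reads (0.804 RPM, 0.166 to 2.35). The levels again followed the order of the stages without overlap of intervals. From oocyte to blastocyst the ratio was 1402-fold lower, with an interval of 480 to 6804. The last 886 bases of the pig ZP2 span overlap TMEM159 on the other strand, which had 203, 57, 30, 11 and 36 reads in stage order. Whether strand was used in counting is not given in the sources used here, so the 3 blastocyst reads cannot be assigned to either gene.

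ZP3 in cow (chromosome 25, 34960635 to 34968376, plus strand) was at 147 RPM in the oocyte library (137 to 158), 87.2 RPM in the 2-4 cell library (78.7 to 96.3), 10.1 RPM in the 8-16 cell library (7.63 to 13.2), 1.80 RPM in the morula library (7 reads, 0.722 to 3.70) and 0 reads in the blastocyst library. As for ZP2, every stage was below the preceding one and no intervals overlapped. The fall from oocyte to blastocyst was at least 696-fold.

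The pig gene, on chromosome 3 from 9934760 to 9944941 on the minus strand, did not follow the order of the stages. ZP3 was at 127 RPM in the pig oocyte library (115 to 139), 3.62 RPM in the 2-4 cell library (15 reads, 2.03 to 5.98), 16.4 RPM in the 8-16 cell library (52 reads, 12.3 to 21.5), 3.33 RPM in the morula library (10 reads, 1.597 to 6.12) and 0 reads in the blastocyst library. The 2-4 cell and morula levels did not differ beyond counting error, whereas the 8-16 cell level lay above both. ZP3 was at least 158-fold lower in the blastocyst than in the oocyte library.

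ZP4 in cow (chromosome 28, 10664110 to 10671377, minus strand) was at 270 RPM in the oocyte library (256 to 285), 229 RPM in the 2-4 cell library (215 to 243), 18.2 RPM in the 8-16 cell library (14.8 to 22.2), 2.31 RPM in the morula library (9 reads, 1.06 to 4.38) and 0 reads in the blastocyst library. In pig (chromosome 14, 53577131 to 53584546, plus strand) the values were 201 RPM (186 to 217), 50.3 RPM (43.7 to 57.6), 30.95 RPM (25.1 to 37.7), 9.66 RPM (6.47 to 13.9) and 0 reads. Both species showed the stage order without overlapping intervals. The fall to the blastocyst was at least 1278-fold in cow and at least 250-fold in pig.

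At the first step, from the oocyte to the 2-4 cell embryo, most transcripts are inherited from the oocyte. The main activation of the embryo's own genome is known to come around the 8-16 cell stage in cow and earlier in pig. In cow no zona gene was called lower at this step, where 0.178% of the 11226 genes compared were, and none was called higher, where 0.196% were. ZP2 stood at 70.2% of its oocyte level (68.5 to 72.0), ZP3 at 59.2% (52.2 to 67.1) and ZP4 at 84.6% (77.9 to 91.8). The 3 intervals exclude 100% and do not overlap each other, so the 3 ratios differed beyond counting error between these 2 libraries. The differences in log2(RPM + 1) were -0.51, -0.75 and -0.24, beside a median of 0.27 over all genes compared. With median scaling, which lowered the median of all genes by 0.21, they were -0.75, -0.98 and -0.48.

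In pig the same step brought much lower zona values. ZP2 was called lower with a difference of -3.16 and ZP3 with -4.79, while ZP4, at -1.98, stayed just short of the threshold. Of the 11362 pig genes compared, 2.17% were called lower and 3.26% higher. ZP2 was at 11.14% of its oocyte level (10.1 to 12.2), ZP3 at 2.86% (1.59 to 4.77) and ZP4 at 24.96% (21.3 to 29.2), again with intervals that do not overlap. No other compared gene had a larger fall than ZP3 at this step, which also held for each of the 10 alternatives. ZP2 was the 23rd of the 11362, and between the 13th and the 46th under the alternatives.

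**Figure D2:**
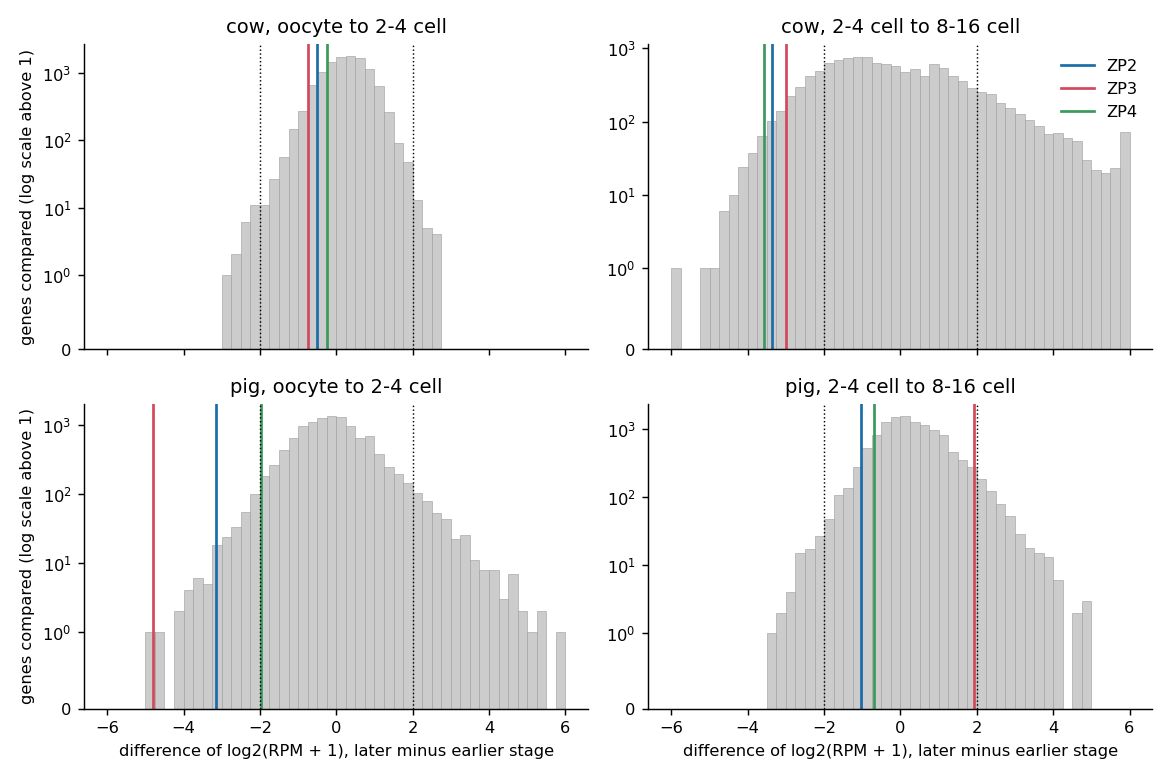
Number of genes compared (log scale above 1) by difference of log2(RPM + 1) at the first and second step in cow and pig, with values beyond 6 in the end bins; coloured lines mark ZP2, ZP3 and ZP4, dotted lines the threshold of 2. In cow the zona lines sit near 0 at the first step and between -2.99 and -3.58 at the second, in pig between -1.98 and -4.79 at the first.

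Genes abundant in the oocyte give the scale for these shares. Of 1663 cow rows with at least 100 RPM in the oocyte library, the median was at 99.4% of the oocyte level at the 2-4 cell stage, and 14.7% of the rows kept less than ZP2, 5.23% less than ZP3 and 32.3% less than ZP4. Among 1924 such pig rows the median was 88.2%. There 8 rows kept less than ZP2, none less than ZP3 and 34 less than ZP4. The order of rows within a library pair does not depend on how the libraries are scaled.

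Other oocyte genes were set beside the zona genes as well. In the cow 2-4 cell library the 10 oocyte markers stood between 74.5% and 269% of their oocyte level, with GDF9, an oocyte growth factor, at 113% and WEE2, a meiotic kinase, at 115%. ZP2 and ZP3 were below all 10, and ZP4 was above DPPA3 alone. In pig the 8 listed markers stood between 3.40% and 81.6%, with a median of 44.3%. GDF9 kept 54.4%, its partner BMP15 69.8% and WEE2 77.5%. ZAR1, which stores maternal mRNA, was at 3.40%, close to ZP3, and OOEP, a subcortical maternal complex gene, at 14.6%. ZP3 was below all 8 markers, ZP2 below 7 of them and ZP4 below 6. With 1 library per stage, whether the zona genes differ from other oocyte genes was not tested.

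**Figure D3:**
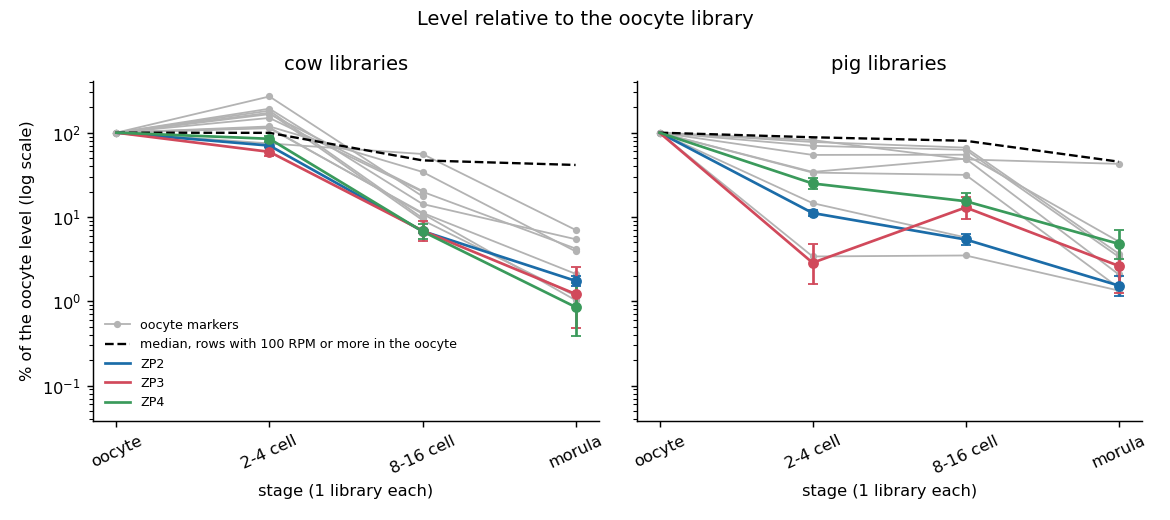
Percent of the oocyte level (log scale) at the 2-4 cell, 8-16 cell and morula stages for ZP2, ZP3 and ZP4 with 95% intervals, for the oocyte markers (grey, not drawn at 0 reads) and as the median of rows with at least 100 RPM in the oocyte (dashed). Cow zona genes meet near 6.8% at the 8-16 cell stage, and pig zona genes are spread between 2.86% and 24.96% at the 2-4 cell stage.

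At the second step, which leads from 2-4 to 8-16 cell embryos, all 3 cow zona genes were called lower, with differences of -3.36 for ZP2, -2.99 for ZP3 and -3.58 for ZP4, and of the 12405 genes compared 14.6% were called lower and 12.6% higher. The folds were 10.3 for ZP2 (9.73 to 10.97), 8.61 for ZP3 (6.48 to 11.6) and 12.5 for ZP4 (10.2 to 15.6). The median over all genes was -0.44, and TMM scaling, which raised the median by 0.48, gave -2.81, -2.46 and -3.04. At the 8-16 cell stage the 3 cow genes stood at nearly one share of their oocyte level: ZP2 at 6.80% (6.41 to 7.21), ZP3 at 6.88% (5.13 to 9.05) and ZP4 at 6.74% (5.44 to 8.27). All 10 oocyte markers kept more, from 9.16% for ZAR1 to 55.8% for DPPA3. Of the 1663 rows abundant in the oocyte, 35 kept less than ZP4, 37 less than ZP2 and 38 less than ZP3.

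In pig no zona gene was called at this step in either direction, where 0.543% of 12153 genes were called lower and 4.33% higher. ZP2 had a difference of -1.03 and ZP4 of -0.68. The ZP3 level was 4.53-fold higher at the 8-16 cell stage than in the 2-4 cell library (2.51 to 8.67), a difference of 1.91 that is under the threshold, and that passed it with a pseudocount of 0.5 RPM (2.04) and with scaling to gene reads outside the mitochondria (2.00). This is based on 15 and 52 reads. Of the 247 pig genes called lower at the first step, 197 had a change above 0 at the second. The median change of such genes at the second step was 0.71. In 37 of them, ZP3 included, it was at least that of ZP3.

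Without the 2-4 cell libraries, a comparison added later, the oocyte and 8-16 cell libraries were set against each other directly. All 3 zona genes were called lower in cow, where 9.91% of 12236 genes were lower and 14% higher, and all 3 in pig, where 1.99% of 12086 were lower and 7.74% higher. The pig folds were 18.5 for ZP2 (16.01 to 21.5), 7.72 for ZP3 (5.78 to 10.5) and 6.50 for ZP4 (5.26 to 8.12). In pig 3 of the 12086 genes had a larger fall than ZP2, 34 a larger one than ZP3 and 64 a larger one than ZP4. At a threshold of 3 in place of 2, ZP2 alone was called in pig. In that pig library ZP2 kept 5.40% of its oocyte level (4.65 to 6.25), ZP3 12.96% (9.53 to 17.3) and ZP4 15.4% (12.3 to 19.03). The ZP2 interval lay below the other two, unlike in cow, where all 3 overlapped.

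From the 8-16 cell embryo to the morula, ZP4 in cow was called lower (-2.54), where 5.15% of 12334 genes were lower and 6.67% higher. Cow ZP2 and ZP3, at -1.94 and -1.99, were just short of the threshold, and the count was between 0 and 3 under the alternatives. In pig ZP3 was called lower at -2.01, with 11.3% of 12746 genes called lower and 12% higher, while ZP2 was at -1.76 and ZP4 at -1.58. The pig count too was between 0 and 3 under the alternatives. In the morula libraries ZP2 still had 1.75% of its oocyte level in cow (1.52 to 1.99) and 1.54% in pig (1.14 to 2.02). Of the other two, ZP3 was at 1.22% in cow and 2.63% in pig, and ZP4 at 0.854% in cow (0.389 to 1.63) and 4.797% in pig (3.19 to 6.95).

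At the last step the zona genes reached the floor, with no zona read among those of cow blastocysts. In pig blastocysts 3 reads were counted, all for ZP2, and whether they come from the overlapping TMEM159 is not known. In cow ZP2 was called lower at -5.77, at least 269-fold, and of 12653 genes 11.5% were called lower and 11.9% higher. ZP3 and ZP4 were already at 7 and 9 reads in the cow morula library, with differences of -1.39 and -1.64. Against 0 blastocyst reads, the 95% lower limits of their ratios were 5.24-fold and 7.18-fold. In pig ZP2 was called lower at -3.34 (52 and 3 reads, 21.5-fold, 6.97 to 108) and ZP4 at -3.10 (29 and 0 reads, 95% lower limit 9.16-fold). Of all pig genes compared there, 13.8% were called lower and 13.8% higher. ZP3 had 10 and 0 reads, a difference of -1.80 and a ratio with a 95% lower limit of 2.78-fold. In the deep cow blastocyst library, the floor stood at 0.00649% of the oocyte level of ZP2, and the 95% upper limit at 0.00798%.

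The make-up of the zona reads was described by the share of each gene in the summed reads of all 3. Because the genes differ in length, only the change of a share between stages is read. In cow ZP2 took 88.6% of 18138 zona reads in the oocyte library (88.2 to 89.1), 87.9% of 11571 at the 2-4 cell stage (87.3 to 88.5) and 88.7% of 1359 at the 8-16 cell stage (86.9 to 90.3). The summed level was 3679 RPM in oocytes and 250.2 RPM in 8-16 cell embryos. In the cow morula library ZP2 took 93.3% of 238 reads (89.3 to 96.1), an interval above that of the oocyte library. The cow ZP3 share was 4.00% in the oocyte library (3.72 to 4.30), 3.34% in the 2-4 cell library (3.02 to 3.688), 4.05% in the 8-16 cell library (3.06 to 5.24) and 2.94% in the morula library (1.19 to 5.97). The ZP4 share was 7.35% (6.97 to 7.74), 8.77% (8.26 to 9.30), 7.28% (5.96 to 8.80) and 3.78% (1.74 to 7.06) in the same order. The oocyte and 2-4 cell libraries of cow thus differed beyond counting error in the shares of ZP3 and ZP4, while the 8-16 cell intervals of all 3 genes overlapped those of the oocyte library.

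In pig the ZP2 share went from 77.5% of 4918 reads in the oocyte library (76.3 to 78.6) to 69.99% of 743 reads (66.5 to 73.3), 56.3% of 343 reads (50.8 to 61.6) and 57.1% of 91 reads in the morula library (46.3 to 67.5). The ZP4 share went from 13.8% (12.9 to 14.8) to 27.99% (24.8 to 31.4), 28.6% (23.8 to 33.7) and 31.9% (22.5 to 42.5). For ZP3 the share was 8.70% in the oocyte library (7.93 to 9.53), 2.02% at the 2-4 cell stage (1.13 to 3.31), 15.2% at the 8-16 cell stage (11.5 to 19.4) and 10.99% in the morula library (5.40 to 19.3). The ZP3 share was thus lowest at the 2-4 cell stage, with an interval below those of the other 3 pig libraries.

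**Figure D4:**
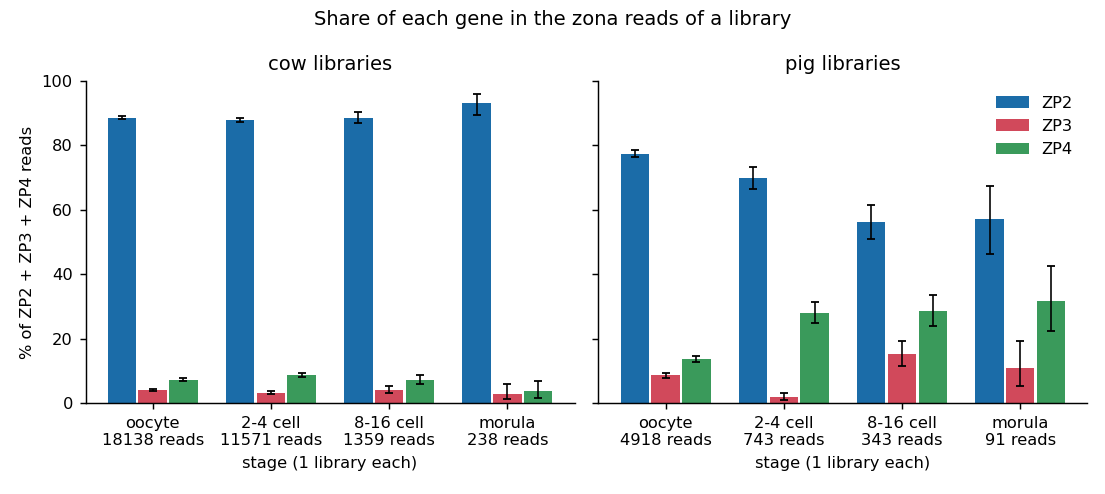
Share of ZP2, ZP3 and ZP4 in the summed zona reads of each library in percent, with 95% Clopper-Pearson intervals and the number of zona reads under each stage. The cow ZP2 bars stay between 87.9% and 93.3%, the pig ZP2 bars go from 77.5% to 57.1%; blastocyst libraries held 0 and 3 zona reads and are not drawn.

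The genes with the most similar course were named by a rule: the 5 symbols with the smallest Euclidean distance to a zona gene in the log2(RPM + 1) differences from the oocyte over the 4 later stages, among rows with at least 100 RPM in one library. This left 3151 cow and 3073 pig symbols to search. Next to cow ZP2 were CCDC181 (distance 1.96), the meiotic kinase gene WEE2 (2.51), BTG4, which recruits the deadenylase that removes maternal mRNA (2.66), NLRP14 (2.73) and SLBP2 (2.86). BCAR4 was nearest to ZP3 (0.83) and to ZP4 (0.74) in cow. It was followed for ZP3 by RGS16, ZP4, ALG13 and CAPRIN2 and for ZP4 by LINGO2, RGS16, SLBP2 and NLRP9. Cow ZP3 and ZP4 were 1.19 apart, and ZP4 was the third nearest symbol to ZP3.

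In pig the nearest symbols to ZP2 were HPGDS (1.76), HAS3, C6orf52, RGS2 and the maintenance methyltransferase gene DNMT1 (3.06). HPGDS, a prostaglandin D synthase, was at 1307 RPM in oocytes and 136 RPM in 2-4 cell embryos. ZP4 had close neighbours in SAP30 (0.48) and DGKK (0.48), then CAPRIN2, NID2 and IGSF10 (1.11). ZP3 had none near: ID3 was at 2.71, DGKK at 2.79, ZP4 at 2.96, C6orf52 at 2.97 and OMA1 at 3.03. ZP2 was 3.51 from ZP3 and 3.22 from ZP4 in pig, and 4.47 and 3.64 from them in cow. All 3 cow genes had 0 blastocyst reads, with blastocyst differences of -11.58 for ZP2, -7.12 for ZP3 and -8.00 for ZP4. The cow distances of ZP2 therefore reflect oocyte levels and do not by themselves show a different course. With the minimum lowered to 20 RPM the nearest symbol to pig ZP3 was ZAR1 (1.76), which is just under 100 RPM in the oocyte library. The pig ZP3 list then kept 1 of its 5 symbols and the cow ZP3 list 3. The lists of ZP2 and ZP4 kept all 5 in both species. Pearson correlation over the 5 stages named mostly other genes, sharing between 0 and 2 of each 5.

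Genes that act on the zona or control its genes were taken from 3 lists. Among 8 regulators of oocyte transcription, 6 were in each table. In cow 5 were called lower from oocyte to blastocyst and 1 higher, with a list median of -4.25 (-4.06 with the floor), and in pig 3 were lower and none higher, with a median of -2.27. These counts stand beside 18.4% of all genes lower and 21.8% higher in cow, and 19.2% and 26% in pig. FIGLA, the factor known to switch on the zona genes in the growing oocyte, was at 38.3 RPM in the cow oocyte library and 24.8 RPM at the 2-4 cell stage and had 0 reads in every later cow library, a fall of at least 181-fold. In pig FIGLA had 4 reads in the oocyte library and at most 1 read later. LHX8, another oocyte factor, fell 34.8-fold in cow (164 and 4.72 RPM) and at least 239-fold in pig (192 RPM and 0 reads). NOBOX fell from 15.8 RPM in cow and 21.3 RPM in pig to 0 reads. Pig LHX8 was at 141 RPM at the 2-4 cell stage and 165 RPM at the 8-16 cell stage, and pig NOBOX at 14.01 and 20.5 RPM, in libraries where ZP2 and ZP3 were already called lower than in the oocyte. TBPL2, an oocyte relative of the TATA-binding protein, fell by at least 110-fold in cow, from 23.3 RPM to 0 reads, and stood at 5.03 and 2.14 RPM in pig. STAT3, a general signalling factor, fell in both, and its pig span overlaps STAT5A. Its cow difference of -2.31 became -1.91 with scaling to gene reads outside the mitochondria, which ends that call. TAF4B, a TFIID subunit, rose in cow, with 13.8 RPM in oocytes, 282 RPM in 8-16 cell embryos and 116 RPM in blastocysts, and was at 40.6 and 54.4 RPM in pig.

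The second list held 13 symbols for zona processing and sperm contact, IZUMO1R under its older name FOLR4 as well. Each species' table listed 11 of them. From oocyte to blastocyst 2 of 9 compared in cow were called lower and 4 higher, with a median of -0.51, where 18.4% of all genes were lower and 21.8% higher. In pig 3 of 11 were lower and 6 higher, with a median of 2.21 (1.87 with the floor), beside 19.2% and 26% of all genes. ASTL, which encodes ovastacin, fell from 58.6 RPM to 2 reads in cow, 416-fold with an interval of 114 to 3449. In pig ASTL was at 10.1, 3.38 and 8.84 RPM through the 8-16 cell stage and at 0 reads from the morula on, at least 12.5-fold lower. IZUMO1R, the egg receptor for sperm IZUMO1, is listed in the pig table alone and fell by at least 95.7-fold from 77.0 RPM in the oocyte library. PADI6, a structural protein of the oocyte cytoplasm and no zona protein, fell in both species. Its level was 32.05 RPM in cow oocytes and 0.423 RPM in cow blastocysts, and 60.4 RPM against 0 reads in pig. The egg-membrane tetraspanin gene CD9 rose instead, 77.2-fold in cow (4.26 and 329 RPM) and at least 431-fold in pig (0 reads and 383 RPM). Its relative CD81 rose 19.3-fold in pig (5.92 and 114 RPM) and stood at 3.04 and 1.83 RPM in cow. FURIN was at 48.7 and 30.95 RPM in cow oocyte and blastocyst libraries, and rose in pig from 24.6 to 117 RPM after 2.42 RPM at the 2-4 cell stage. The pig call of FURIN (2.21) was lost with TMM scaling (1.95). PCSK7, a related protease, rose in cow (1.42 and 41.8 RPM) and in pig (1.18 and 25.2 RPM), where its span overlaps TAGLN. MFGE8 and TGM2 rose in both as well, in pig from 0 to 22 reads each, and those pig calls (2.45) were lost with a pseudocount of 2 RPM (1.80). OVGP1, the oviduct protein added to the zona from outside, had 0 reads in the cow oocyte and 2-4 cell libraries. It had 16 reads in the cow 8-16 cell library, 22 in the morula and 4 in the blastocyst library, and is not in the pig table.

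Other proteins with a ZP domain formed the third list, with 12 symbols. ZP1, the cross-linking zona protein of other mammals, is in neither table under that name. Of 3 compared in cow between oocyte and blastocyst, 1 was called lower and none higher, with a median of -1.93 (-1.74 with the floor), beside 18.4% and 21.8% of all genes. Of 4 in pig 1 was lower and 1 higher, with a median of 1.71, beside 19.2% and 26%. The member called lower in cow was TECTB, which encodes beta-tectorin, a protein known from the tectorial membrane of the inner ear. Its levels in cow were 113 RPM in oocytes, 121 RPM in 2-4 cell embryos, 22.1 RPM in 8-16 cell embryos, 3.85 RPM in morulae and 0 reads in blastocysts, a fall of at least 532-fold. In pig the one called lower was TECTA, for alpha-tectorin, with 556 RPM in oocytes, 584 RPM in 2-4 cell embryos, 603 RPM in 8-16 cell embryos, 114 RPM in morulae and 19.6 RPM in blastocysts. The pig TECTA span holds a microRNA gene, ssc-mir-9818. TECTA had at most 3 reads in any cow library, and TECTB at most 9 reads in any pig library. Pig TECTA was thus not below its oocyte level in the 8-16 cell library, in which ZP2, ZP3 and ZP4 were between 5.40% and 15.4% of theirs. UMODL1 was the gene called higher in pig, from 0 reads to 10.7 RPM.

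**Figure D5:**
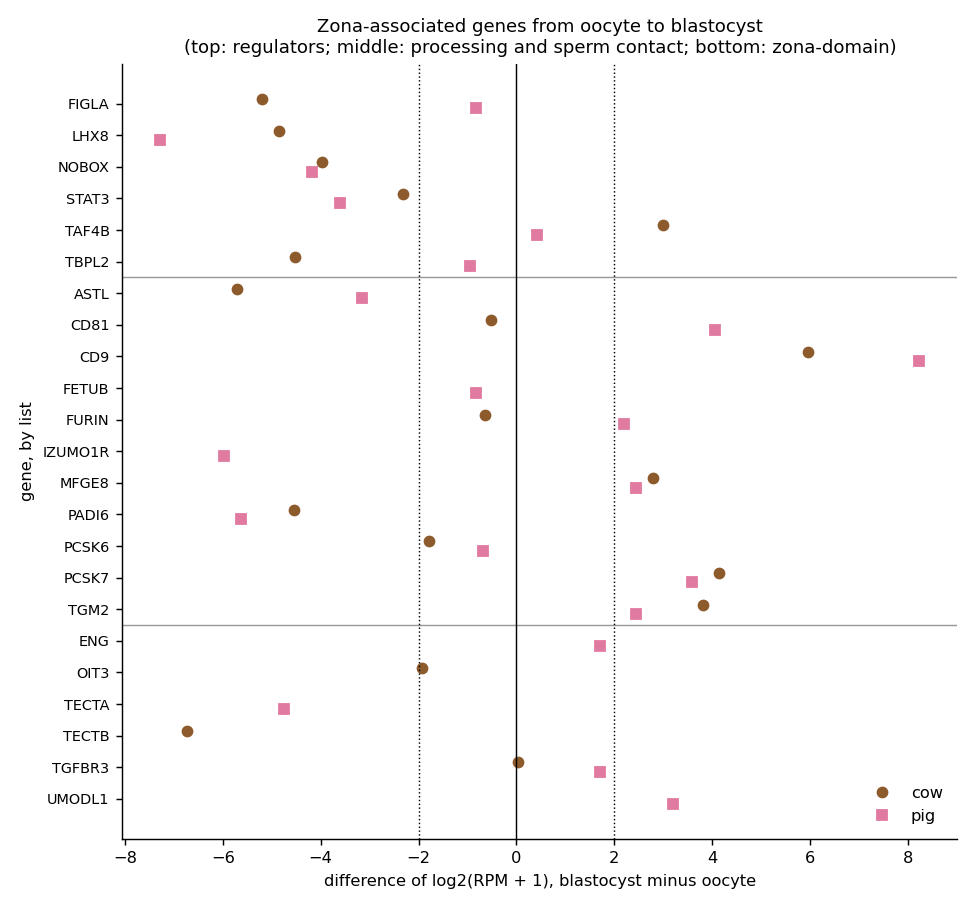
Difference of log2(RPM + 1), blastocyst minus oocyte, for each compared gene of the 3 zona-associated lists in cow (circles) and pig (squares), with dotted lines at the threshold of 2. ASTL, LHX8, NOBOX, PADI6 and STAT3 lie to the left in both species and CD9, MFGE8, PCSK7 and TGM2 to the right in both.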

How the data were processed

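Total RNA of 10 libraries was isolated, amplified as cDNA for low input and sequenced, per the labels' protocols. The authors deposited log2 values, 1 table per species. The submitters' processing notes name Trim Galore 0.6.4, HISAT2 2.1.0 and the builds UMD3.1 and Sscrofa11.1. Counting, annotation and strand use are not given in the sources used here. Within 0.01 reads or a hundred-thousandth of the count, 100% of values above the lowest were whole multiples of 1 read, so the deposited log2 values are log2 RPM, with 0 reads written as 0.9 of a read. Changes used these values with a pseudocount of 1 RPM, a minimum of 1 RPM and a threshold of 2. The tables were scaled separately, so changes were computed within a species. Python 3.11.15, numpy 2.4.6, pandas 2.3.3, scipy 1.17.1 and matplotlib 3.10.9 were used, and the calculations were tested on simulated data. Of repeated symbols the row with the highest mean was used. The genes named are ZP2, ZP3 and ZP4, the 5 nearest symbols to each, and in each species up to 5 called members of each of 3 lists by size, with those at or near the floor. STAT3, FURIN, MFGE8 and ASTL in pig were named beyond this rule, after their values were seen. Genes and lists were chosen with earlier results of these data known. Sequences of the zona genes and lengths of their transcripts were not used here. Alternatives changed the pseudocount, the scaling, the minimum, the threshold, the likeness measure and the treatment of 0 reads.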

Additional observations from a re-analysis of the deposited data

Results flagged for a closer look

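ZP3 moved in opposite directions in both species from the 2-4 cell to the 8-16 cell stage, with a difference of -2.99 in cow and 1.91 in pig and counting intervals of the ratio that exclude 1 in each. The pig value was under the threshold of 2. Of the 247 pig genes called lower from oocyte to 2-4 cell, 197 had a change above 0 at the next step. Their group of 247 had a median change of 0.71 there. FURIN too moved in opposite directions, from oocyte to blastocyst, at -0.64 in cow and 2.21 in pig. The cow value of FURIN was under the threshold, and the pig value was so with TMM scaling (1.95). With 1 library per stage and species, neither difference between the species was tested.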

How the results depend on the processing

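All 3 zona genes were called lower from oocyte to blastocyst in both species under all 10 alternatives. At the second step in cow all 3 were called except at a threshold of 3 (2 genes, without ZP3), and at the first step in pig 2 were called except at a threshold of 1 (3 genes). No difference of a zona gene changed sign. Values near the threshold moved other counts, and the cause was not tested. Between 8-16 cell embryos and morulae of cow, 1 zona gene was called lower, against 2 with a pseudocount of 0.5 RPM, with scaling to gene reads outside the mitochondria and with median scaling, 3 with TMM scaling and at a threshold of 1, and 0 at a threshold of 3. For the cow step to the blastocyst 1 was called, against 3 with a pseudocount of 0.5 RPM and at a threshold of 1 and 2 with the mitochondrial scaling. Between 8-16 cell embryos and morulae of pig, 1 was called, against 0 with a pseudocount of 2 RPM and at a threshold of 3, 2 with median scaling and 3 at a threshold of 1. At the pig step before that, ZP3 was called higher (1 gene) with a pseudocount of 0.5 RPM, with the mitochondrial scaling and at a threshold of 1, where 1 other gene was also called lower. At the last step in pig 3 in place of 2 were called with a pseudocount of 0.5 RPM, the mitochondrial scaling, a threshold of 1 and 0 reads as 0 RPM. From the pig oocyte to the 8-16 cell stage 1 in place of 3 was called at a threshold of 3. Among the lists, other zona-domain genes called lower in cow were 2 in place of 1 with a pseudocount of 0.5 RPM, with the mitochondrial scaling, at a threshold of 1 and with 0 reads as 0 RPM, and those called higher in pig were 3 in place of 1 at a threshold of 1. At a threshold of 3 no cow regulator was called higher (0 in place of 1), and 3 in place of 6 pig genes of zona processing and sperm contact were, which numbered 4 with a pseudocount of 2 RPM and 5 with TMM scaling. Cow regulators called lower were 4 in place of 5 with the mitochondrial scaling and at a threshold of 3. The scalings moved the median of all genes by up to 0.48, at the cow step to the 8-16 cell stage. No paired analysis was possible because each group has 1 library. Depth limits the blastocyst values, which rest on 0 to 3 reads, the morula values of ZP3 and ZP4 (7 to 29 reads) and pig ZP3 at the 2-4 cell stage (15 reads).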
